A study of Oncorhynchus mykiss with 13 samples.

Results

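Cytochrome P450 enzymes are membrane-bound monooxygenases that insert an oxygen atom into steroids, fatty acids and foreign compounds. In the endoplasmic reticulum they receive their electrons from a shared partner, NADPH-cytochrome P450 reductase, and in the ovary this chemistry includes the aromatase step that makes estrogens from androgens. Here 3 members of this system were followed in the preovulatory ovary of the rainbow trout (Oncorhynchus mykiss). Clone tcba0022.f.09 (# 192 in the study) is similar to a salmonid P450 reductase. Clone tcac0006.f.17 (# 194) is similar to rat CYP2J3, of a subfamily that in mammals hydroxylates and epoxidises arachidonic acid. The third, listed as #228 CYP8B1-like, is clone tcac0005.m.05, similar to mouse CYP8B1, the sterol 12-alpha-hydroxylase of bile acid synthesis in mammals. These names rest on the best protein match of each cDNA. The 3 clones, of 9023 clones on the array, were selected by the study on differences in their ratios between stages on these same 13 arrays. The stage differences below are therefore a description, without p-values. The same holds for stages that do not overlap, since the share of all clones without overlap was not counted.

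Full ovarian tissue was taken from 13 females of an autumn-spawning strain, 2 years old and in their first reproductive season, with 1 array per female and no treatment named in the labels. Late vitellogenesis, the last phase of yolk uptake, was represented by females 2, 3 and 4. Females 13, 14, 15 and 31 were in post-vitellogenesis, before meiosis resumed, and the labels give female 14 a germinal vesicle at the periphery of the oocyte. Females 25 to 30, 6 in number, were in oocyte maturation, around germinal vesicle breakdown. Each value is the spot's signal, corrected for the DNA in the spot and divided by the median of the array, and is called the ratio. A value of 1 is therefore the array's median spot, and ratios of different clones are not compared as amounts of transcript. Because the tissue holds oocytes, granulosa, theca and stroma, a lower ratio through less transcript per cell and one through fewer cells of a type cannot be told apart.

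The median of all spots was 1 on each array. Spots listed at 0 numbered 498 to 932 per array, and 8077 clones, with 3 of the 3 studied here, were above 0 on every array. Between arrays of a stage, log2 ratios correlated across clones at 0.913 or more, and the lowest value was between maturing females. Aromatase, which is made by granulosa cells, was well above the array median in late vitellogenesis (tcac0004.f.21, lowest ratio 14.2). In maturation this clone was at 1.24 to 2.09, and the second aromatase clone, tcbk0013.n.16, at 0.315 to 0.650. The study selected both for a change between stages, so they do not check the tissue across stages. Markers of other cell types were not checked, since the sources used here name only the clones of the study's tables.

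P450 reductase transfers electrons from NADPH to the P450 enzymes. Its clone had ratios of 2.87, 3.74 and 2.98 in late vitellogenesis (females 2, 3 and 4). In post-vitellogenesis the ratios were 2.35, 2.81, 3.25 and 1.81 (females 13, 14, 15 and 31). The 6 maturing females had from 1.58 (female 25) to 2.21 (female 27), with a median of 1.95. All 6 maturing females were thus below all 3 females in late vitellogenesis. The post-vitellogenic females lay between and across the other stages: female 15 was above 2 of the 3 females in late vitellogenesis, and female 31 was below 5 of the 6 maturing females. The stage means were 3.19 ± 0.477 (SD, n = 3), 2.55 ± 0.615 (n = 4) and 1.94 ± 0.231 (n = 6). As geometric means, the clone was 1.64-fold lower in maturation than in late vitellogenesis, a log2 difference of -0.72 (standard error 0.17). The steps through post-vitellogenesis were of similar size, -0.35 (0.18) before it and -0.37 (0.15) after it.

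CYP2J enzymes oxidise polyunsaturated fatty acids in mammals. The CYP2J3-like clone had ratios of 2.21, 2.76 and 2.01 in females 2, 3 and 4 in late vitellogenesis. The post-vitellogenic females 13, 14, 15 and 31 had 1.39, 1.35, 2.17 and 1.10. In maturation the ratios ran from 0.793 (female 28) to 1.16 (female 30), with a median of 1.02. Here too all 6 maturing females were below all 3 females in late vitellogenesis, and 4 of the 6 were also below every post-vitellogenic female. The same 2 post-vitellogenic females stood at the ends, female 15 within the range of late vitellogenesis and female 31 within that of maturation. The means were 2.33 ± 0.388 (n = 3), 1.501 ± 0.464 (n = 4) and 0.999 ± 0.146 (n = 6, SD), so that the clone came down to the array median. It was 2.33-fold lower in maturation than in late vitellogenesis (log2 difference -1.22, standard error 0.19), with -0.66 (0.20) over the first interval and -0.55 (0.17) over the second.

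The CYP8B1-like clone went the other way. Its ratios were 0.366, 0.278 and 0.388 in late vitellogenesis (females 2, 3 and 4), and 0.378, 0.389, 0.408 and 0.449 in post-vitellogenesis (females 13, 14, 15 and 31). In maturation they were 1.21, 0.851, 1.05, 0.897, 0.499 and 0.978 (females 25 to 30 in order). Every maturing female was above every earlier female, and the nearest values were those of maturing female 29 and post-vitellogenic female 31. The means were 0.344 ± 0.0583 (n = 3), 0.406 ± 0.0314 (n = 4) and 0.914 ± 0.239 (n = 6, SD). The clone exceeded its level in late vitellogenesis 2.59-fold at maturation (log2 difference 1.37, standard error 0.21) and that in post-vitellogenesis 2.18-fold (1.12, standard error 0.19). Between the first 2 stages the difference was 0.25 (0.22), little more than its standard error. That error pools the spread of all 3 stages, and the log2 SD was largest in maturation (0.440). It was 0.257 in late vitellogenesis and 0.109 in post-vitellogenesis. The earlier ratios lay low on their arrays, above only 7.34% to 12.4% of the clones kept, against 16.7% to 59.5% in maturation. Signals before the correction for spotted DNA were not examined, so whether these were weak is not known. In every maturing female but female 29 the ratio was at least 0.851.

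**Figure D1:**
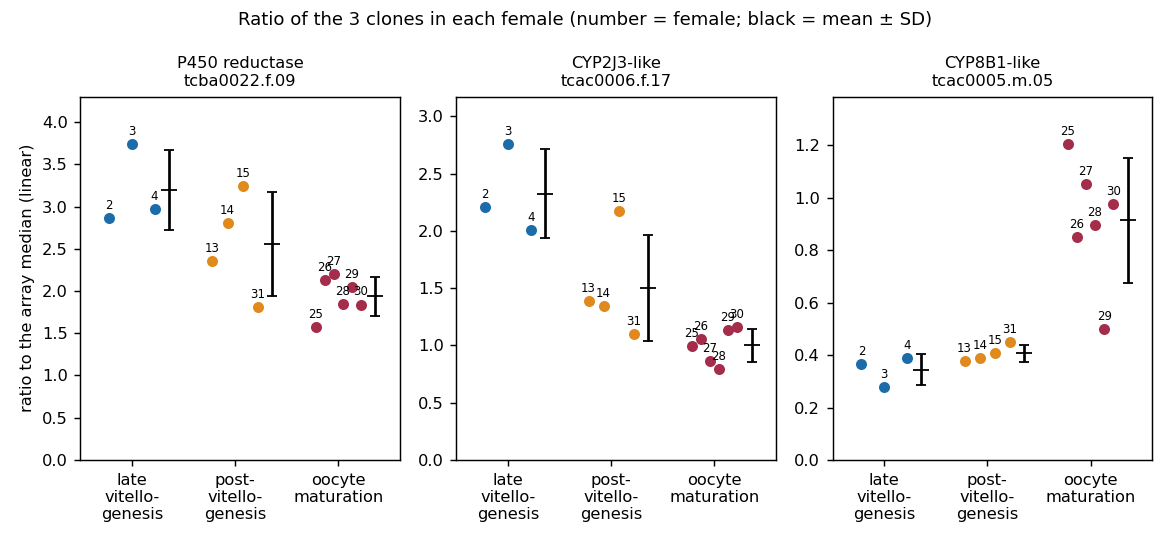
Ratio to the array median (linear axes from 0, a separate scale for each clone) of the P450 reductase, CYP2J3-like and CYP8B1-like clones in each of the 13 females by stage. Coloured points are females with their numbers, and black bars are the mean ± SD. The reductase and CYP2J3-like clones are lower in all 6 maturing females than in the 3 females in late vitellogenesis. For the CYP8B1-like clone each maturing female lies above all 7 earlier females. The share of all clones that separate the stages in this way was not counted.

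To place these differences on the array, limma was fitted to the log2 ratios of all 8077 clones, with Benjamini-Hochberg adjustment and a threshold of 0.05 (two-sided). Between late vitellogenesis and oocyte maturation limma called 4.04% of all clones and 3 of the 3 clones studied here (1 higher and 2 lower). Between post-vitellogenesis and maturation it called 4.57% of all clones and 1 of the 3, the CYP8B1-like clone (higher). Between late vitellogenesis and post-vitellogenesis it called 0.0248% of all clones and 0 of the 3, with 1 of the 3 and 240 of the 8077 clones at an unadjusted p under 0.05. With the first 2 stages pooled (7 females) against maturation (6 females) it called 8.85% of all clones and 3 of the 3. The 3 clones had been chosen on these comparisons, so nothing is read from these counts. The 3 clones differ in direction, so their median log2 difference is only the value of the reductase clone and describes no shared shift. It was -0.35, -0.37 and -0.72 for the first interval, the second and both together. Over all clones the median was 0.03, 0.01 and 0.03. From late vitellogenesis to maturation the middle 90% of all clones had log2 differences from -0.40 to 0.53.

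The calls that changed with a female left out follow, and nothing is read from these either. Between late vitellogenesis and maturation the reductase clone was not called without female 3 (log2 difference -0.60) or without female 4. Against the 7 earlier females together it was -0.52 (standard error 0.14), and it was not called without female 3 (-0.45), female 4 (-0.50), female 15 (-0.48) or female 25 (-0.46). Between post-vitellogenesis and maturation the reductase and CYP2J3-like clones were both called without female 31 (-0.53 and -0.69) and with array weights (-0.47 and -0.82), and the CYP2J3-like clone also without female 30 (-0.60).

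Of the study's tables, 3 further clones are P450 enzymes. Ovarian aromatase is represented by tcac0004.f.21 and tcbk0013.n.16, and the third, tcag0002.n.03, is named cyp1a3, an enzyme of a subfamily that oxidises foreign aromatic compounds. The study picked these on the same arrays as well. Limma called 3 of the 3 lower in maturation than in late vitellogenesis, where it called 4.04% of all clones, and 3 of the 3 lower than in post-vitellogenesis, where it called 4.57%. Between the first 2 stages it called 0 of the 3 (2 of the 3 and 240 of the 8077 clones at an unadjusted p under 0.05), and nothing is read from these counts.

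The aromatase clone tcac0004.f.21 had ratios of 14.7, 19.2 and 14.2 in late vitellogenesis (females 2, 3 and 4). Females 13, 14, 15 and 31 had 6.62, 3.33, 13.4 and 2.24, and the 6 maturing females 1.24 to 2.09, with a median of 1.35. The 3 stages did not overlap, though the share of all clones that separate the stages in this way was not counted. The other aromatase clone, tcbk0013.n.16, had 10.8, 11.9 and 6.98, then 3.61, 1.79, 8.99 and 0.963, then 0.315 to 0.650 with a median of 0.338. Its maturing females lay below all others, while female 15 lay inside the range of late vitellogenesis. In maturation its ratios were low on their arrays, above only 4.77% to 21.5% of the clones kept. The log2 differences of the aromatase clones from late vitellogenesis to maturation were -3.47 (standard error 0.37) and -4.64 (0.46), larger than the -1.22 and -0.72 of the CYP2J3-like and reductase clones. The cyp1a3 clone was nearer to the reductase clone in size, at -0.71 (0.17), with means of 1.37 ± 0.204 (n = 3), 1.28 ± 0.343 (n = 4) and 0.833 ± 0.0983 (n = 6, SD). Of the 6 P450 and reductase clones, the CYP8B1-like clone alone was higher in maturation.

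**Figure D2:**
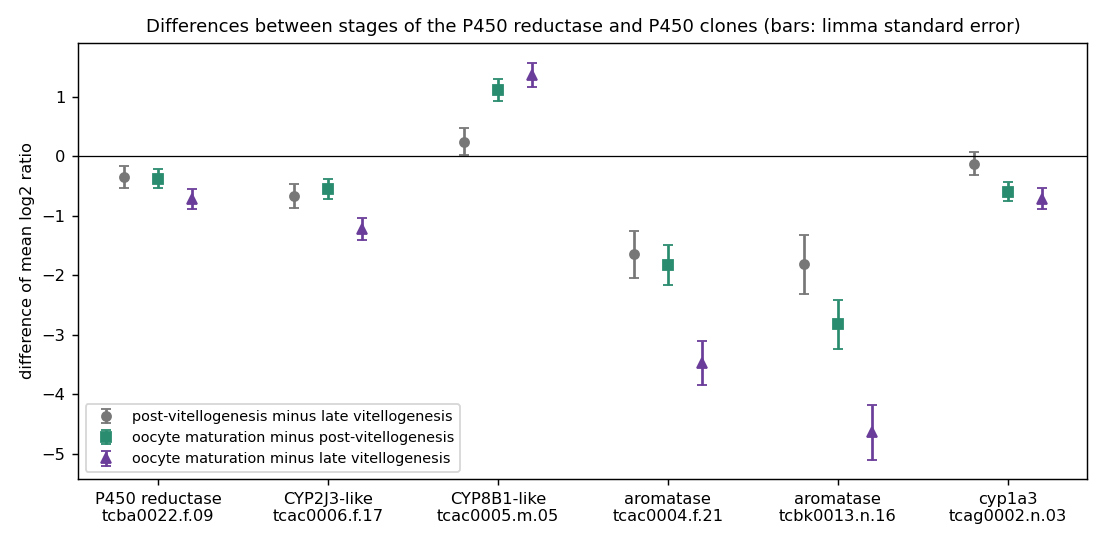
Difference of mean log2 ratio between stages for the reductase clone and the 5 P450 clones, with bars for the limma standard error and a line at 0. The CYP8B1-like clone is above 0 in the comparisons with oocyte maturation, and the other 5 clones are below 0, the aromatase clones by the most.

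Since reductase serves several P450 enzymes, each P450 clone was also set against the reductase clone on the same array, as a log2 difference that is read only for how it moves between stages. For the CYP2J3-like clone this difference was -0.46 ± 0.0985 (SD, n = 3) at first, in late vitellogenesis. It was -0.78 ± 0.202 (n = 4) at the next stage and -0.96 ± 0.284 (n = 6) in maturation. The ratio of the CYP2J3-like clone thus came down by more than that of the reductase clone. For the CYP8B1-like clone the difference went from -3.22 through -2.62 to -1.13. For the aromatase clones it went from 2.32 to -0.43 (tcac0004.f.21) and from 1.60 to -2.32 (tcbk0013.n.16). For cyp1a3 it was -1.23, -1.0 and -1.22. The cyp1a3 and reductase ratios thus came down by nearly the same amount from the first stage to the last. The 2 clones of aromatase itself differed in their fall, at -3.47 and -4.64 from late vitellogenesis to maturation. Gaps between clones in the size of a fall are therefore gaps in ratio, and are not read as gaps in transcript.

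How much of the way from late vitellogenesis to maturation was covered in post-vitellogenesis differed between clones and between females. With the mean log2 ratio of late vitellogenesis set to 0% and that of maturation to 100%, the post-vitellogenic mean stood at 48.1% for the reductase clone and 54.5% for the CYP2J3-like clone. It stood at 47.5% and 39.1% for the aromatase clones (tcac0004.f.21 and tcbk0013.n.16). For cyp1a3 it stood at 16.7%, with single females from -50.1% (female 14) to 83.3% (female 31). The CYP8B1-like clone was at 18.3%, with single females from 10.9% to 29.1%. The females of the stage were far apart for the reductase clone, from -4.74% (female 15) to 112.6% (female 31), and for the CYP2J3-like clone, from 7.08% (female 15) to 87.3% (female 31). The same 2 females were the ends for both aromatase clones. Female 31 was also the post-vitellogenic female with the highest CYP8B1-like ratio.

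This position of female 31 was shared by many of the clones that the study grouped with the reductase and CYP2J3-like clones. In the study's cluster of 32 clones that were high in late vitellogenesis and low in maturation, female 31 was the lowest post-vitellogenic female for 30 clones (93.8%), against 29.9% of all 8077 clones. Female 15 was the highest for 16 of the 32 (50%) and female 14 for 14 (43.8%), against 15.3% and 31.6% of all clones. These clones were grouped by the study on the same arrays, so the shares are a description. On the log2 scale the SD within post-vitellogenesis was 0.362 for the reductase clone and 0.413 for the CYP2J3-like clone, larger than that of 92.0% and 94.9% of all clones, whose median was 0.175. In maturation the CYP2J3-like clone had an SD close to the median of all clones (0.218, against 0.219). That of the reductase clone was lower, at 0.177, and 30.3% of clones had a smaller one.

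The CYP8B1-like clone had the opposite spread. Its SD was 0.109 in post-vitellogenesis, smaller than that of most clones (19.4% had a smaller one), and 0.440 in maturation, larger than that of 94.9% of the clones. Female 29 was the lowest of the stage, at 0.499. In the study's cluster of clones over expressed at meiosis resumption, 43 of which were analysed, female 29 was the lowest maturing female for 19 (44.2%) and the highest for 0, against 16.5% and 17.4% of all clones.

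Over the 7 earlier females, the log2 ratios of the CYP2J3-like clone followed those of aromatase. Pearson's r was 0.961 with tcbk0013.n.16 and 0.959 with tcac0004.f.21, and the order of the 7 females was the same for the CYP2J3-like clone and tcbk0013.n.16 (Spearman's rho 1). Without the 2 females farthest from the median of the CYP2J3-like clone, r was 0.968 and 0.978. The reductase clone correlated with the CYP2J3-like clone at r = 0.899 (rho 0.857, and 0.729 without females 3 and 31). Its r with the aromatase clones was 0.828 (tcac0004.f.21) and 0.839 (tcbk0013.n.16), and 0.485 and 0.502 without the same 2 females. These values pool 2 stages that differ in level, and the clones were grouped by the study through their correlation on these arrays, so they have no p-value. Over the 6 maturing females, r was -0.02 between the reductase and CYP2J3-like clones. It was 0.749 between the CYP2J3-like clone and tcbk0013.n.16 (rho 0.943). The ratios of tcbk0013.n.16 in these females lay low on their arrays, above only 4.77% to 21.5% of the clones kept. In all 24 correlations were computed, 12 pairs in each set of females. Those over the maturing females lay between -0.435 and 0.749.

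The correlations of the CYP8B1-like clone with the other members were negative. Over the 7 earlier females r was -0.729 with the reductase clone and -0.722 with the CYP2J3-like clone. Without females 3 and 31, the farthest from the median of the reductase clone, the first became 0.588. Its sign thus rested on those 2 females. For the second, females 14 and 31 were farthest from the median of the CYP2J3-like clone. Without those, and with female 3 kept, r was -0.589. Over the maturing females r was -0.435 with the reductase clone and -0.389 with the CYP2J3-like clone.

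**Figure D3:**
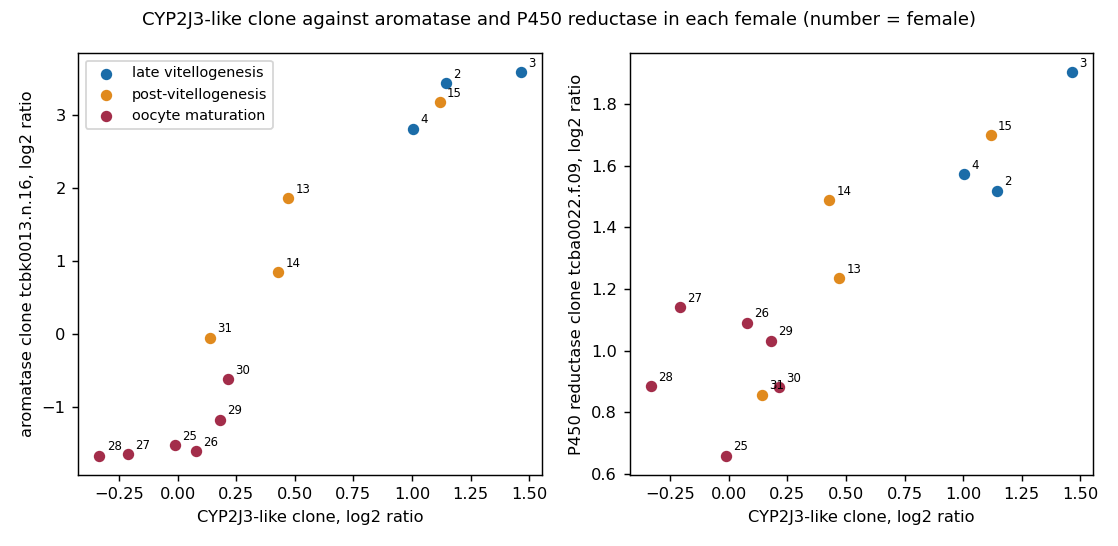
Log2 ratio of the CYP2J3-like clone (horizontal axes) against that of aromatase clone tcbk0013.n.16 (left) and of the P450 reductase clone (right), with 1 point per female, coloured by stage and numbered. On the left the 7 earlier females keep the same order on both axes (r = 0.961). On the right r is 0.899 over the earlier females, which pool 2 stages that differ in level, and -0.02 over the 6 maturing females. Without the 2 females farthest from the median of the reductase clone in each set, r is 0.729 and 0.374.

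Among the other 8076 clones, the profile over the 13 females most like that of the reductase clone was that of a clone for vitamin K-dependent protein S, an anticoagulant cofactor (tcay0036.n.19, Pearson's r = 0.917). It was followed by a second protein S clone (tcbk0006.j.01, 0.911), a clone similar to the RNA-binding protein RNPC2 (tcac0002.f.11, 0.9002), aromatase tcac0004.f.21 (0.898) and the unnamed clone tcbk0006.j.15 (0.896). Nearest to the CYP2J3-like clone were both aromatase clones, tcbk0013.n.16 (0.959) and tcac0004.f.21 (0.938). The RNPC2-like clone (0.928), a C9orf10-like clone (1RT148P13_B_H07, 0.923) and glutathione S-transferase P (tcbk0045.m.11, 0.894), which conjugates glutathione to reactive compounds, came next. When only deviations from the stage means were correlated, aromatase tcbk0013.n.16 remained the first for the CYP2J3-like clone (0.874), while tcac0004.f.21 was not among the first 20. For the CYP2J3-like clone 6 of the 20 most similar clones were shared by both measures, and 9 of the 20 were in the study's tables by the first measure and 3 of 20 by the second. For the reductase clone 3 of the 20 most similar clones were shared by both measures, and 11 of the 20 were in the study's tables by the first measure and 0 of 20 by the second.

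The CYP8B1-like clone was most like pendrin, an anion transporter (tcbk0013.j.13, r = 0.952). Clones similar to aspartoacylase-2 (tcba0016.h.07, 0.951), dystrophin, which ties the cytoskeleton to the matrix (1RT38L12_D_F06, 0.951), RGS18, a regulator of G protein signalling (tcbk0004.a.22, 0.949), and glypican-3, a heparan sulfate proteoglycan (tcbk0013.j.22, 0.949), came next. Of its 20 most similar clones 14 were in the study's tables, and 7 of the 20 were shared with the list from deviations. By deviations 5 of 20 were in the study's tables, and the unnamed clone tcbk0014.h.09 was first (0.873). Pendrin was next (0.850), and the dystrophin-like and RGS18-like clones were also listed. The aspartoacylase-2-like and glypican-3-like clones were not among those 20. For all 5 named clones, female 29 was the lowest maturing female, with ratios of 2.63, 0.698, 2.85, 0.638 and 0.380 in the order above, against medians of 7.15, 0.905, 5.0, 1.17 and 0.779. The 5 clones were picked for their likeness over these same females.

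**Figure D4:**
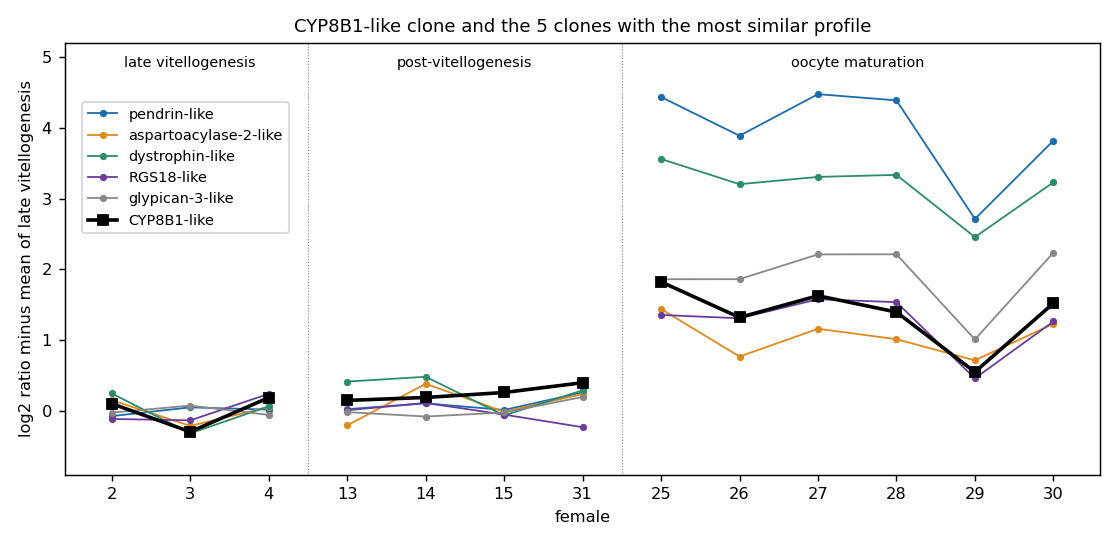
Log2 ratio minus the clone's own mean in late vitellogenesis, for the CYP8B1-like clone (black squares) and the 5 clones with the most similar profile, in each female in order of stage; lines join females of a stage for reading only. All 6 clones are higher in the maturing females, and female 29 is the lowest maturing female for each.

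For comparison 6 other enzyme clones were picked from the study's tables, as enzymes of conjugation, lipid and redox reactions; the tables hold further enzymes that were not listed here. Limma called 6 of the 6 between the 7 earlier and the 6 maturing females, 2 higher and 4 lower, against 8.85% of all clones. The study chose these too on the same arrays, so nothing is read from the count. A sulfotransferase (tcay0023.a.19), which conjugates sulfate to small molecules, had a log2 difference of -1.06 (standard error 0.17). Glutathione S-transferase P had -0.74 (0.13) and retinol dehydrogenase (tcbk0003.k.18), which oxidises retinol, -0.70 (0.15). The most negative difference of the 6 was that of cmah (tcbk0034.l.08), which hydroxylates sialic acid, at -2.37 (0.28). Glutathione peroxidase 4 (tcad0009.n.15), which reduces lipid peroxides, had 1.45 (0.19), and a fatty acid elongase (tcba0014.c.14) 1.82 (0.26), beside 1.23 (0.16) for the CYP8B1-like clone. Retinol dehydrogenase was not called between late vitellogenesis and maturation (-0.56, standard error 0.19), where limma called 5 of the 6 and 4.04% of all clones.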

How the data were processed

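Ovarian RNA was reverse transcribed into radiolabelled cDNA, and that of each female was hybridized to a nylon array of its own. The authors excluded spots with a weak vector oligonucleotide signal, corrected each signal for the DNA in the spot and divided it by the array median; the deposited values are these ratios (linear, not log). No aligner, genome build or count is involved, and the number of arrays limits the precision.

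Control and water spots and 946 clones at 0 on some or all arrays were left out, and the ratios of 8077 clones were transformed to log2. Stages were compared with limma 3.58.1 in R 4.3.3, which was tested on simulated data first; the methods used SAM. The 3 stages were fitted together, and the 7 earlier females against the 6 maturing females in a second fit. Replicates are separate females, each with its own array, so the spread holds differences between fish together with those of labelling and hybridization. Correlations and figures were made in Python 3.11.15. The clones named were the 3 members, the P450 clones and 6 other enzyme clones of the study's tables, and the 5 most correlated clones of each member. Members and lists were chosen with earlier results of these data known. Alternatives were no filter with a pseudocount of 0.05, the pseudocount alone, quantile normalization, only the groups compared, array weights and each female left out. For the 3 members, the log2 ratio of arithmetic means was a further alternative between the maturing and the earlier females.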

Additional observations from a re-analysis of the deposited data

Results flagged for a closer look

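The ratio of aromatase clone tcac0004.f.21 in maturing female 27, 2.09, stood apart from those of the other 5 maturing females, which lay between 1.24 and 1.39. Its gap to the nearest of them was 0.825 of the range, above Dixon's 95% critical value for 6 samples. It was the only one to pass among the 24 groups of females tested for the clones named above by enzyme, and chance flags about 1 in 20 groups.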

How the results depend on the processing

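The log2 differences of the 3 clones were computed under 216 alternatives in all. Of these, 215 moved them by less than the spread between females or not at all, 1 moved one by more, and 0 reversed one. The exception was the CYP2J3-like clone from late vitellogenesis to post-vitellogenesis, -0.34 with array weights against -0.66. Part of the 215 could not move a value, because each value is a difference between stage means. Between single stages, leaving out a female of the stage not compared, or fitting only the groups compared, returned the same difference. The count of 215 therefore overstates how far the differences were tested. Without the filter, limma did not call the reductase clone in either comparison where it otherwise did.

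The number of clones called between late vitellogenesis and post-vitellogenesis was 2, and 22 with array weights, 1 with only these 2 stages fitted, and 0 to 4 with a female left out (0 without female 4). Between post-vitellogenesis and maturation it was 369, 974 with array weights, and 149 (without female 15) to 531 (without female 30), with 199 without female 14. Between late vitellogenesis and maturation it was 326, 1355 with array weights, 190 without the filter, and 121 (without female 4) to 433 (without female 30), with 123, 214 and 204 without females 3, 2 and 27. Between the earlier and the maturing females it was 715, 1123 with array weights, and 495 (without female 15) to 805 (without female 30). The cause was not tested.

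There were 7 correlations that changed sign. Some changed over the maturing females without the 2 farthest from the median of the first clone of each pair. There r became 0.374 between the reductase and CYP2J3-like clones and 0.278 between the CYP2J3-like clone and aromatase tcac0004.f.21. The third, between the CYP8B1-like clone and tcbk0013.n.16, became 0.247. That of the CYP2J3-like clone with tcac0004.f.21 was also positive as Spearman's rho, at 0.257. The rho of the CYP8B1-like clone was -0.20 with tcac0004.f.21 and -0.086 with cyp1a3. Over the earlier females without females 3 and 31, the CYP8B1-like clone had r = 0.588 with the reductase clone and 0.287 with cyp1a3. The ratios of the CYP8B1-like clone before maturation lay low on their arrays, and whether this affected its correlations was not tested.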
